A study of Gallus gallus with 10 samples.

Results

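The genes examined were 8 genes of hemoglobin and the red blood cell, namely HBA1, HBAD, HBBA, RHAG, RHCE, SPTB, TAL1 and TSPO2, which are 8 of the 17617 rows of the expression table. They were found by their symbol in that table, each on a single row, and all 8 had at least 1 read in every hen and passed the low-count filter. The tissue was the white isthmus of dwarf white laying hens, the oviduct segment in which eggshell membrane fibers are formed, and 1 library was sequenced per hen. The translucent group held 5 hens graded as laying translucent eggs and chosen for thinner eggshell membranes, and the opaque group held 5 hens graded as laying opaque eggs and chosen for normal membranes. For the eggs in the oviduct at sampling, however, the study reported no significant difference in membrane thickness between the groups. All 10 hens are listed as wild type, came from the same selected population, have no treatment listed and were sampled after laying an egg. The study describes the stage in different ways. Its methods name shell calcification, its results place the next egg in the white isthmus, and its discussion names the formation of the membrane. The hens were killed by exsanguination under anesthesia. Hens are called here by group and number, from Translucent-1 to Translucent-5 and from Opaque-1 to Opaque-5.

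Hemoglobin is a tetramer of alpha-type and beta-type chains with a heme group in each chain. Birds have nucleated red blood cells, and the adult chicken makes a major hemoglobin from the alpha A chain and a minor one from the alpha D chain, both joined to the same adult beta chain. Young red blood cells still carry globin RNA, so that a tissue sample with its blood vessels holds globin reads without making hemoglobin itself. In a bulk tissue sample, fewer red blood cells and less RNA per cell cannot be told apart.

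The 3 adult globin chains were the most abundant of the 8 genes. Measured as FPKM, which corrects for gene length and depth, HBBA (the adult beta chain, ENSGALG00000047152) had a mean level of 73.3 over the 10 hens and ranked 1031 among the 17617 rows. HBA1 (the alpha A chain, ENSGALG00000043234) had a mean of 69.0 FPKM and ranked 1100. HBAD (the alpha D chain, ENSGALG00000031597) had a mean of 20.8 FPKM and ranked 3774. The other 5 genes had mean levels of 0.50 to 1.95 FPKM. RHCE (ENSGALG00000040279), the chicken gene of the Rh blood group family of membrane proteins, and TAL1 (ENSGALG00000023296), a transcription factor required for blood formation that is also made in endothelium, both had 1.95 FPKM. SPTB, beta spectrin of the membrane skeleton, stood on a locus that StringTie assembled and that has no Ensembl identifier, with 1.18 FPKM. RHAG (ENSGALG00000016684), the partner of the Rh proteins in the red cell membrane, had 0.94 FPKM, and TSPO2 (ENSGALG00000003212), a relative of the translocator protein known from maturing red blood cells of mammals, had 0.50 FPKM.

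In this order, HBA1 lay above HBAD and HBAD above RHCE in all 10 hens. HBBA exceeded HBA1 in 8 of 10 hens by a mean of 4.26 FPKM, which is less than the SD of that difference over hens, 7.45 FPKM. RHCE and TAL1 differed by less than their spread, and so did SPTB and RHAG (mean difference 0.24, SD 0.37 FPKM, n = 10). TAL1 was above SPTB in all 10 hens, and RHAG was above TSPO2 in 9 of 10. Of the genes listed for the labelled tissue, SPINK7, COL10A1 and LOXL2 had mean levels of 72561.9, 28713.9 and 2786.2 FPKM.

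The embryonic chains were at or near 0 beside these adult chains. In RefSeq's gene list for assembly GRCg7b, HBAD and HBA1 stand next to the embryonic alpha-type gene HBZ, and HBBA stands between HBE and HBE1, with HBBR after them. HBE and HBBR had 0 reads in every hen, where a count of 0 allows up to 3 reads or 0.158 to 0.259 CPM depending on the hen, CPM being reads scaled to a common library size. HBZ and HBE1 had at most 1 read in any hen, while HBBA had 332 to 1810. The deposited counts of HBBA were partly fractional before rounding, because reads that fit several rows were divided between them, whereas HBA1 and HBAD had whole counts in every hen. The level of HBBA therefore depends in part on how reads were divided, by an amount that was not examined. The 3 non-erythroid globins were also low, with 1.92 FPKM for CYGB, 0.63 FPKM for NGB and 0 reads for the muscle globin MB.

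Together, HBA1, HBAD and HBBA took 0.00546% to 0.0206% of the reads counted on genes. The lowest share was that of Translucent-1 (1038 reads, 95% Wilson interval 0.00514% to 0.0058%) and the highest that of Translucent-5 (3382 reads, 0.02% to 0.0213%). Translucent-4 followed with 0.0181%, and the other 8 hens lay at or below the 0.0127% of Opaque-2. Translucent hens had a mean share of 0.0124% ± 0.0066 and opaque hens one of 0.00907% ± 0.0025 (SD, n = 5 each). These intervals cover counting error only.

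HBBA reached 32.2, 39.8, 44.1, 85.8 and 103.0 CPM (after TMM normalization) in Translucent-1 to Translucent-5. In Opaque-1 to Opaque-5 it was at 42.7, 66.1, 40.9, 48.0 and 32.8 CPM. Translucent-4 and Translucent-5 were above every opaque hen, Translucent-1 was below all of them, and the groups overlapped. For HBA1 the translucent hens had 26.0, 35.8, 35.0, 67.7 and 71.2 CPM and the opaque hens 32.2, 46.1, 29.8, 35.1 and 26.0 CPM. HBAD had 5.72, 8.09, 10.6, 20.1 and 18.3 CPM against 9.70, 12.0, 8.50, 11.1 and 7.42 CPM. All 3 chains were therefore highest in the same pair of translucent hens and lowest in Translucent-1 or Opaque-5.

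**Figure D1:**
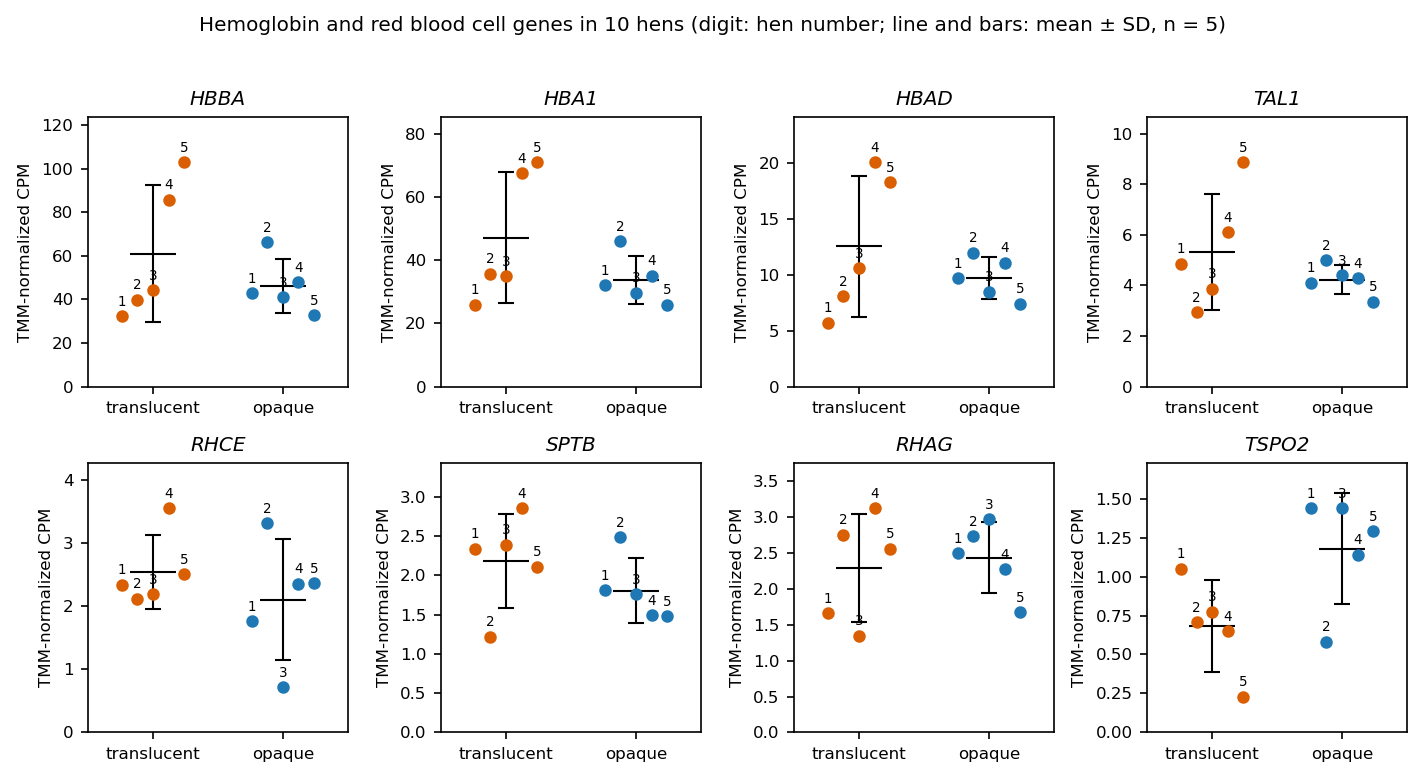
TMM-normalized CPM (y axis, linear from 0) of the 8 genes in the 5 translucent (orange) and 5 opaque (blue) hens, 1 point per hen with its number, the horizontal line and bars giving the mean and SD. HBBA, HBA1 and HBAD are highest in translucent hens 4 and 5, and the groups overlap in all 8 genes.

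The comparison of the study asks which genes differ in the isthmus between hens that lay translucent and opaque eggs. Of the 8 genes, 0 were called by edgeR's quasi-likelihood test at an adjusted p-value under 0.05 with an absolute log2 fold change over 1, where 0% of the 12858 genes tested were called. With the fold limit kept and p not adjusted (at most 0.05), the count was again 0 of 8, beside 0.428% of all genes. At an unadjusted p-value of at most 0.05 alone it was 0 of 8, beside 2.19% of all genes. DESeq2 called 0 of 8 at the adjusted limits, beside 0.0246% of its genes, and 0 of 8 at the unadjusted p-value, beside 2.56%. Limma on log2(FPKM + 1) placed 1 of 8, TSPO2, under the unadjusted limit, beside 2.81% of its genes, and on log2(FPKM + 0.1) 0 of 8, beside 2.77%. No gene of the 8 had groups without overlap, whereas 0.443% of all genes did.

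The 3 chains had log2 fold changes of 0.48 for HBA1, 0.40 for HBBA and 0.37 for HBAD in the translucent against the opaque group. In group means, HBBA had 61.0 ± 31.4 and 46.1 ± 12.5 CPM (SD, n = 5 each). HBA1 had 47.1 ± 20.8 and 33.9 ± 7.62 CPM, and HBAD 12.6 ± 6.35 and 9.74 ± 1.86 CPM. Each difference was smaller than the SD of the translucent group. Permuting the hens exactly over the groups (two-sided, on log2 CPM) gave p = 0.44 for HBBA, p = 0.27 for HBA1 and p = 0.55 for HBAD (n = 5 per group). The edgeR p-values before adjustment were 0.234 for HBBA, 0.116 for HBA1 and 0.282 for HBAD. The edgeR adjusted p-value was 1 for every one of the 8 genes. The 95% intervals of the log2 fold changes ran from -0.30 to 1.11 for HBBA, from -0.14 to 1.09 for HBA1 and from -0.35 to 1.09 for HBAD.

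The direction of the 3 chains rested on Translucent-4 and Translucent-5. With both left out, an analysis chosen after the data were seen, the log2 fold changes turned to -0.07 for HBA1, -0.25 for HBBA and -0.26 for HBAD (edgeR adjusted p = 1 for each). The 6 hens of the study's sequencing table leave out these hens and also Opaque-4 and Opaque-5, and over those 6 hens the values were -0.15 for HBA1, -0.36 for HBBA and -0.30 for HBAD (edgeR adjusted p = 0.82, 0.64 and 0.73). With Translucent-5 alone left out, the log2 fold change was 0.13 for HBBA, 0.19 for HBAD and 0.28 for HBA1, and with Translucent-4 alone left out it was 0.25, 0.13 and 0.31. With Translucent-1 alone left out it rose to 0.565, 0.554 and 0.632. The edgeR p-values before adjustment were then 0.0835 for HBBA, 0.0739 for HBAD and 0.0291 for HBA1, and the adjusted p-value was 0.99 for each. The summed level of 7 leukocyte marker genes came mostly from CD74 (mean 219.8 FPKM), with CD3D next at 9.63 FPKM. This sum was highest in Translucent-5, at 489.0 FPKM, and Translucent-4 had 289.8 FPKM, against 110.9 to 342.6 FPKM in the other 8 hens. For the endothelial list of 9 genes these hens had 102.3 and 77.0 FPKM against 42.7 to 116.7 FPKM in the others. No marker of either list was at 0 in every hen. The relation of the endothelial mean with HBBA across hens is given below, and none was computed for the leukocyte genes. The part of these cell types in the group difference of the globins was not tested.

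TAL1 had 4.86, 2.95, 3.87, 6.10 and 8.88 CPM in the translucent hens and 4.10, 4.99, 4.41, 4.29 and 3.36 CPM in the opaque hens. Its range among translucent hens enclosed the whole opaque range, and Translucent-4 and Translucent-5 were again the highest. The log2 fold change was 0.34 (SE 0.29, exact permutation p = 0.45, n = 5 per group), and -0.20 over the 6 hens. SPTB lay between 1.22 and 2.86 CPM in translucent hens and between 1.48 and 2.49 CPM in opaque hens, with a log2 fold change of 0.27 (SE 0.29) and -0.02 over the 6 hens.

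The Rh genes did not separate the groups. RHCE lay between 2.12 and 3.56 CPM in the translucent hens and between 0.721 and 3.32 CPM in the opaque hens, where Opaque-3 with 9 reads was the lowest of all. Its log2 fold change was 0.28 (SE 0.36), with 0.06 as the lowest value when single hens were left out, in the fit without Opaque-3. RHAG had 1.35 to 3.13 CPM and 1.68 to 2.97 CPM, a log2 fold change of -0.09 (SE 0.29) that became 0.01 without Translucent-1 and 0.05 without Translucent-3. The pair is known to form a complex in the red cell membrane. Here both genes were highest in Translucent-4, while RHAG was lowest in Translucent-3 and RHCE in Opaque-3.

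TSPO2 had the most negative log2 fold change of the 8 genes, and it did not pass the test. Hens Translucent-1 to Translucent-5 had 1.05, 0.706, 0.774, 0.648 and 0.228 CPM of it. Hens Opaque-1 to Opaque-5 had 1.44, 0.582, 1.44, 1.14 and 1.29 CPM. Every opaque hen but Opaque-2 was above all translucent hens. The log2 fold change was -0.79 (SE 0.40, exact two-sided permutation p = 0.071, n = 5 per group), and the edgeR p-value before adjustment was 0.0742. These levels rest on 4 to 27 reads per hen, and the 4 reads of Translucent-5 have a 95% Poisson interval of 1.09 to 10.2. Without Translucent-1 the log2 fold change was -1.002 with an unadjusted edgeR p-value of 0.0415, which is within the unadjusted limits of p and fold change. Without Opaque-2 it was -0.96 with an unadjusted p-value of 0.036. Without Translucent-5 it was -0.57 with an unadjusted p-value of 0.136, and the adjusted p-value was at least 0.99 in these 3 fits.

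Among the 8 genes, 6 had a positive and 2 a negative log2 fold change, where 48.6% of all genes tested were positive. Their median was 0.31 against -0.01 for all genes tested. HBA1, HBAD, HBBA and TAL1 share the high values of Translucent-4 and Translucent-5 and turned in sign without these hens, so their directions are not separate observations. SPTB, RHAG and RHCE were also highest of all hens in Translucent-4, at 2.86, 3.13 and 3.56 CPM, with 2.11, 2.56 and 2.51 CPM in Translucent-5. Without both hens their log2 fold changes were 0.13, -0.34 and 0.08. Over the 6 hens, 5 of the 8 turned in sign (HBA1, HBAD, HBBA, SPTB and TAL1).

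**Figure D2:**
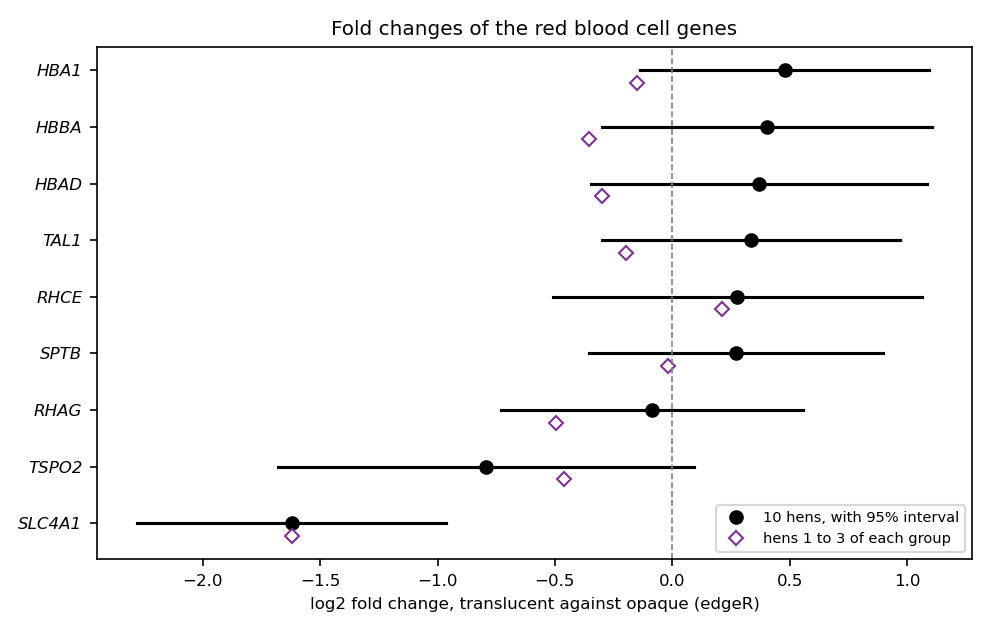
Log2 fold change of the translucent against the opaque group by edgeR (x axis) for the 8 genes and SLC4A1 (y axis), with black points and lines for all 10 hens with the 95% interval and open diamonds for hens 1 to 3 of each group. The intervals of all 8 genes include 0, that of TSPO2 running from -1.68 to 0.09, and that of SLC4A1 runs from -2.28 to -0.96.

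The chains kept close to fixed proportions while their levels varied. Over the 10 hens, the summed FPKM of the 3 chains differed up to 3.76-fold between hens, from 83.1 to 312.0. The ratio of both alpha chains to HBBA, by FPKM, lay between 1.10 and 1.40, with means of 1.28 ± 0.11 for translucent and 1.22 ± 0.07 for opaque hens (SD, n = 5 each). HBAD made up 19.4% to 25.7% of the alpha-chain FPKM, with means of 22.1% ± 2.54 and 24.0% ± 1.34 (SD, n = 5 each). Counted in reads, the HBAD share ran from 18.1% in Translucent-1 (95% Wilson interval 15.0% to 21.6%) to 24.1% in Opaque-4 (20.6% to 27.9%). The share in Translucent-5, the hen with the most HBBA, was 20.5% (18.6% to 22.5%), and that in Opaque-5, near the lower end, was 22.2% (18.1% to 26.9%). The interval of Translucent-1 overlapped those of all other hens.

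Whether the genes rise and fall together from hen to hen was examined by the deviations of log2 CPM from the group means, over 10 relations in all, with hens permuted exactly within their groups. HBBA and HBA1 had Pearson's r = 0.99 (p = 0.000139, adjusted p = 0.00139, exact permutation, n = 10) and Spearman's rho = 0.96 (p = 0.000764, adjusted p = 0.00382). HBBA and HBAD had r = 0.95 (p = 0.000278, adjusted p = 0.00139, exact permutation, n = 10) and rho = 0.98 (p = 0.000347, adjusted p = 0.00347). Without Translucent-4 and Translucent-5, the hens farthest from the median of HBBA, r was 0.98 and 0.87. The relation among the chains thus did not rest on those hens.

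TSPO2 ran against HBBA across hens. Its r was -0.83 (p = 0.0016, adjusted p = 0.00532, exact permutation, n = 10) and its rho -0.73 (p = 0.0239, adjusted p = 0.0398). Without Translucent-4 and Translucent-5, r was -0.85 with an adjusted p of 0.106 by exact permutation. Leaving out Translucent-5 alone gave r = -0.71 with an adjusted p of 0.0579 by exact permutation, and on log2(FPKM + 1) r was -0.63 (adjusted p = 0.0551). Opaque-2, which had the most HBBA of the opaque hens, had the least TSPO2 among them.

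TAL1 had r = 0.81 with HBBA (p = 0.0227, adjusted p = 0.0454, exact permutation, n = 10) and rho = 0.88 (p = 0.0169, adjusted p = 0.0338). Without Translucent-4 and Translucent-5, r was 0.33, so the relation rested on these hens. The adjusted p rose above 0.05 when any of Translucent-3, Translucent-4, Translucent-5, Opaque-1, Opaque-2, Opaque-4 or Opaque-5 was left out, with r between 0.67 and 0.81 in those fits. RHAG had r = 0.60 (p = 0.152) and rho = 0.42 (p = 0.33), RHCE r = 0.39 (p = 0.161) and rho = 0.50 (p = 0.123), and SPTB r = 0.46 (p = 0.29) and rho = 0.39 (p = 0.303), all by exact permutation. The adjusted p-values of these 3 genes were between 0.176 and 0.367, and r without the same pair of hens was 0.34, 0.38 and 0.40.

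The mean log2 CPM of 9 endothelial genes moved with HBBA, with r = 0.69 (p = 0.00896, adjusted p = 0.0224, exact permutation, n = 10) and rho = 0.79 (p = 0.00583, adjusted p = 0.0146). Without Translucent-4 and Translucent-5, r was 0.78 with an adjusted p of 0.147 by exact permutation. Leaving out Translucent-1, Translucent-5 or Opaque-5 gave r = 0.60, 0.61 and 0.76 with adjusted p-values of 0.0689, 0.153 and 0.0573 by exact permutation. The endothelial mean was lowest in Translucent-1 (3.49) and Opaque-5 (3.14 log2 CPM), which also had the least HBBA and the smallest TMM factors, 0.855 and 0.869. Those hens stood apart from the others in the first principal component of all genes (39.8% of the variance). Their summed levels of the 7 isthmus and oviduct genes, 154893.9 and 125065.3 FPKM, were above the 90874.8 to 110729.4 FPKM of the others. That sum came mostly from SPINK7 and COL10A1, with means of 72561.9 and 28713.9 FPKM, and does not describe the 7 genes as a set. SPINK7 had SDs of 26846.9 (translucent) and 16153.1 FPKM (opaque), and COL10A1 had 2038.9 and 1674.0 FPKM. The part of Translucent-1 and Opaque-5 in the relation was not tested, but without both r was 0.63 (adjusted p = 0.119 by exact permutation). TAL1 and the endothelial mean had r = 0.52 (p = 0.0646, adjusted p = 0.108) and rho = 0.79 (p = 0.00583, adjusted p = 0.0146, both by exact permutation), and r was 0.62 without Translucent-2 and Translucent-5, the hens farthest in TAL1.

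**Figure D3:**
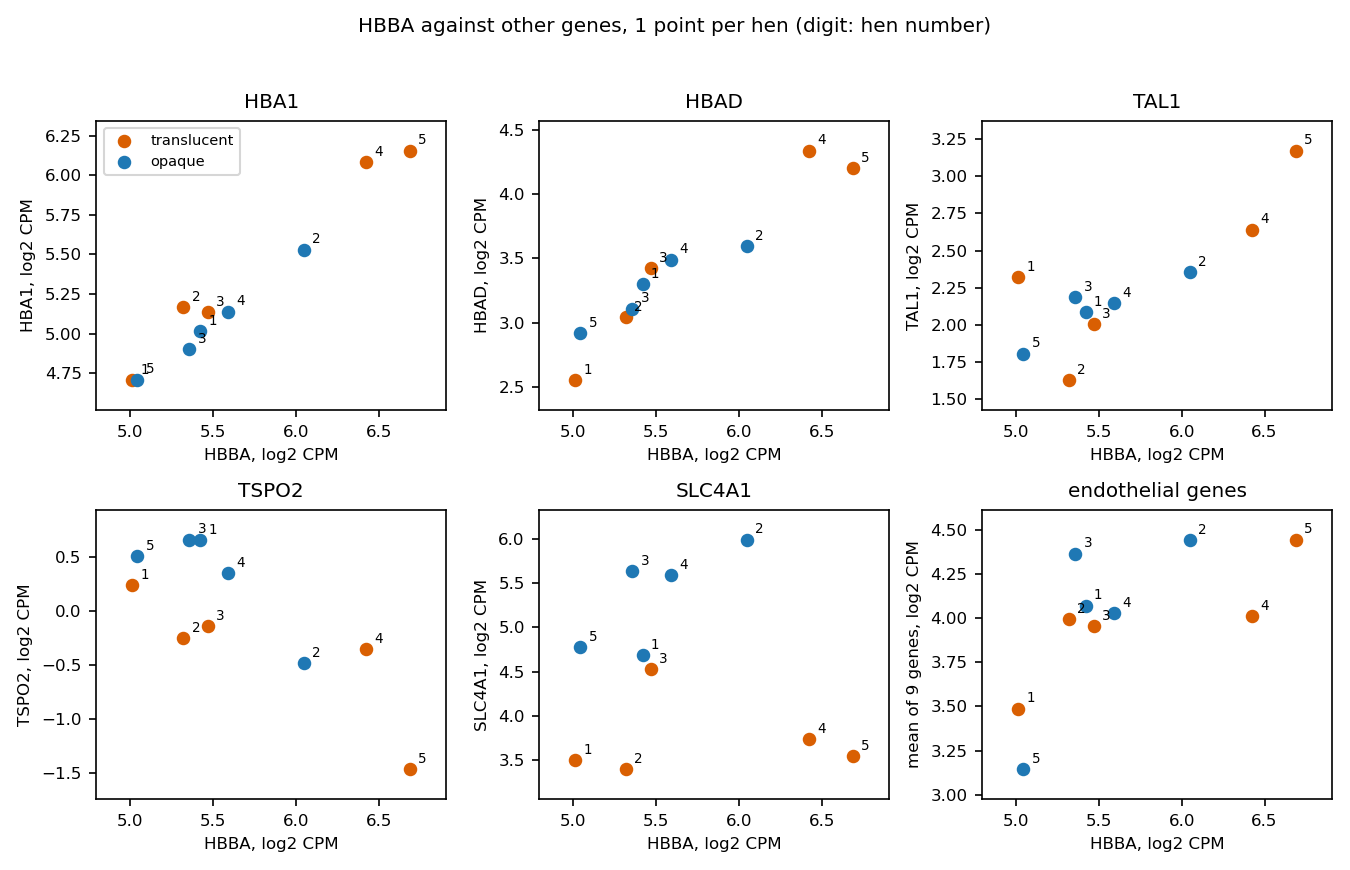
Log2 CPM of HBBA (x axis) against log2 CPM of HBA1, HBAD, TAL1, TSPO2, SLC4A1 and the mean of 9 endothelial genes (y axes), 1 point per hen, orange for translucent and blue for opaque, with the hen number. The alpha chains follow HBBA over both groups, TSPO2 declines with it, and the opaque hens lie above the translucent hens in SLC4A1.

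SLC4A1 (band 3, ENSGALG00000039978), the chloride and bicarbonate exchanger of the red cell membrane that is also made in acid-secreting epithelial cells of the kidney, differed between the groups in a way that the globins did not. It had 11.2, 10.4, 23.0, 13.2 and 11.5 CPM in the translucent hens and 25.6, 63.3, 49.4, 48.0 and 27.2 CPM in the opaque hens. Every translucent hen was below every opaque hen, whereas the globin levels of the groups overlapped. Of all genes tested, 0.443% had groups without overlap. The log2 fold change was -1.62 (SE 0.30), with an unadjusted p-value of 0.000191 and an adjusted p-value of 1 from edgeR, and it lay between -1.88 and -1.37 in the other analyses. The exact two-sided permutation p was 0.0079 (n = 5 per group), the smallest that this test can give. The adjusted p-value from DESeq2 was 0.00134. Over the 6 hens it was -1.62 again, where the globins had turned in sign. The study had already named SLC4A1 among the genes lower in the translucent group by RNA. Its proteomics of the isthmus reported the SLC4A1 protein as higher in that group.

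Set against HBBA, there were 34.8, 26.1, 52.1, 15.4 and 11.2 SLC4A1 reads per 100 HBBA reads in Translucent-1 to Translucent-5. In Opaque-1 to Opaque-5 there were 59.9, 95.7, 120.8, 99.8 and 82.8. Reads are not corrected for gene length. By FPKM, SLC4A1 stood at 2.23 to 10.1 per 100 of HBBA in translucent hens and at 11.9 to 23.1 in opaque hens. Counted in reads, the ratio varied 10.8-fold over the 10 hens while the alpha to beta ratio varied 1.27-fold. It is given as a description, without a test, since it was chosen after the values of SLC4A1 were seen. Across hens, the deviations of SLC4A1 and HBBA had r = 0.23 (p = 0.538, adjusted p = 0.538) and rho = 0.30 (p = 0.409, adjusted p = 0.409, both by exact permutation, n = 10). It was r = 0.73 without Translucent-4 and Translucent-5 (adjusted p = 0.147 by exact permutation). Over the 6 hens, which allow few permutations, it was r = 0.65 (adjusted p = 0.444 by exact permutation). Translucent-4 and Translucent-5 had the most HBBA but SLC4A1 levels like those of the other translucent hens.

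**Figure D4:**
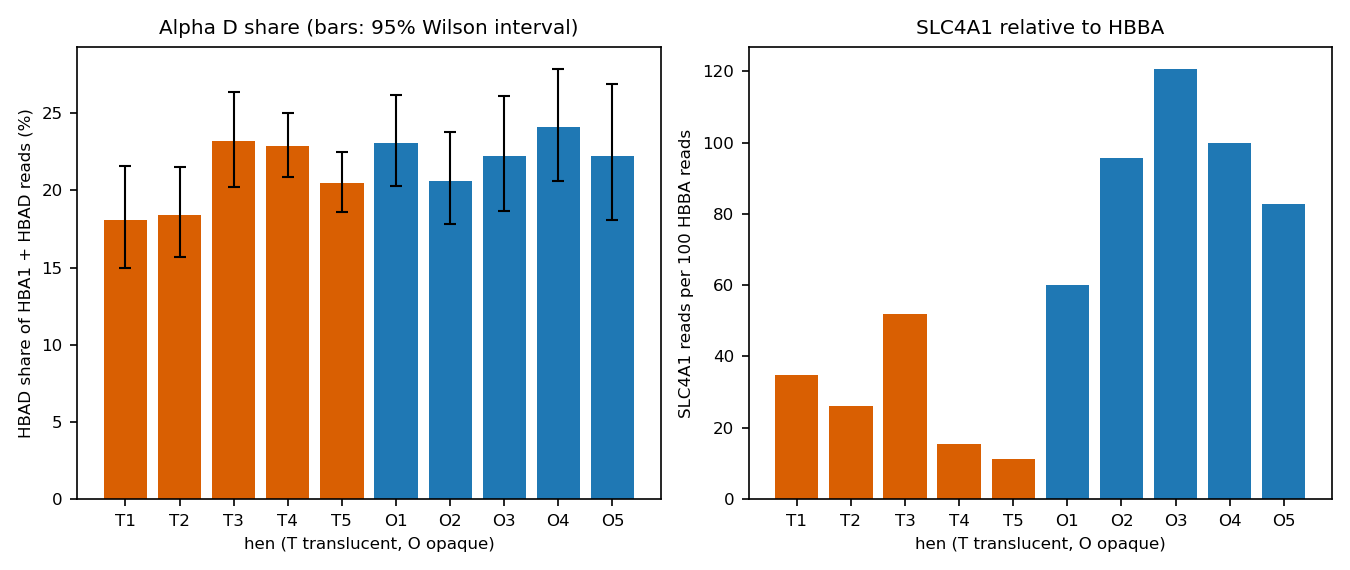
Left, the share of HBAD in the HBA1 and HBAD reads of each hen (y axis, percent, with 95% Wilson intervals), and right, SLC4A1 reads per 100 HBBA reads, with translucent hens T1 to T5 in orange and opaque hens O1 to O5 in blue (x axes). The HBAD share stays between 18.1% and 24.1%, while the SLC4A1 ratio lies between 11.2 and 52.1 in translucent and between 59.9 and 120.8 in opaque hens.

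Other genes of red blood cells were read from lists of membrane, regulatory and heme genes. Of the 18 membrane and skeleton genes listed, 15 were in the table and 13 were tested, of which 6 were positive and 7 negative, with a median log2 fold change of -0.01. SLC4A1 was the only one of the 13 within the unadjusted limits of p and fold change. The most abundant were STOM with 98.5 FPKM, the water channel AQP1 with 93.0 FPKM and the glucose transporter SLC2A1 with 81.3 FPKM, all of them made by many cell types, and their log2 fold changes were 0.14, 0.09 and -0.14. Other genes of the membrane skeleton ranged widely. EPB41, protein 4.1, had 17.5 FPKM, and the tropomodulin TMOD1 had 6.65 FPKM and a log2 fold change of -0.43 (SE 0.24). ANK1, the ankyrin that ties band 3 to spectrin, had 0.64 FPKM and a log2 fold change of 0.05 (SE 0.53), and EPB42, which binds band 3, had 0.23 FPKM and was not tested.

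Of 19 erythroid regulators and receptors, 8 were found under their symbol and 7 tested, 4 positive and 3 negative, with a median of 0.02 and 0 within the unadjusted limits. TFRC, the transferrin receptor that takes up iron, averaged 57.7 CPM in translucent hens and 35.9 CPM in opaque hens, a log2 fold change of 0.69 (SE 0.33) with an edgeR adjusted p-value of 1. LMO2 and LDB1, partners of TAL1 in its DNA-binding complex, had 16.3 and 13.3 FPKM, more than TAL1, with log2 fold changes of 0.09 and -0.18. GFI1B, an erythroid repressor, had at most 5 reads per hen and was not tested. GATA1, ALAS2, EPOR and HEMGN were not analysed here, since no row was matched to these symbols. A row described as the erythroid Kruppel-like factor, but without a symbol, was also not used.

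The 15 heme synthesis and iron genes found of 16 listed were all tested, 8 positive and 7 negative, with a median of 0.01 and 0 within the unadjusted limits. ALAD, an early enzyme of the pathway, had 45.2 FPKM, and the metalloreductase STEAP3 had 39.7 FPKM. ALAS1, the form of the first enzyme that is made in all tissues, had 34.6 FPKM. The log2 fold changes of ALAD, STEAP3 and ALAS1 were 0.05, -0.10 and -0.15.

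Markers of other cells of the vessels and blood gave the following counts, with 0 genes within the unadjusted limits in every list. All 7 leukocyte genes tested were positive with a median of 0.42, led by CD74 with 219.8 FPKM, CD3D with 9.63 FPKM and CD3E with 9.05 FPKM. Of the 9 endothelial genes, led by PECAM1, CLDN5 and CDH5 with 29.1, 23.3 and 9.10 FPKM, 1 was positive and 8 were negative, with a median of -0.05. Thrombocytes, the nucleated clotting cells of birds, were barely seen, since ITGA2B, GP9 and GP1BB had at most 15 reads per hen and only THBS1 and ITGB3, which other cells make too, were tested, with a median of 0.17. Of the plasma proteins made by liver, ALB had at most 10 reads and FGA at most 6, while TF and APOA1, with 4771.5 and 61.9 FPKM, are genes that the oviduct or other tissues express. The 3 of these 8 that were tested had a median of -0.06. The medians of the 7 isthmus and oviduct genes and the 6 smooth muscle genes, which were led by ACTA2, ACTG2 and TAGLN with 51.7, 43.5 and 33.7 FPKM, were 0.10 and -0.03, and that of CYGB and NGB was 0.00.

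The genes whose pattern over the 10 hens was most like that of the globins were ranked by Pearson's r with the mean of the standardized log2 CPM of HBA1, HBAD and HBBA. Apart from these 3 chains, the highest was ENSGALG00000052767, which has neither a symbol nor a description in the table, with r = 0.97 and 2.95 to 8.71 CPM. Others among the 10 highest were NIPAL2 (r = 0.90), ATXN10 (0.90), RAMP3 (0.88), RFESD (0.88), ANGPT2 (0.88), SCARB1 (0.86), MISP (0.85) and CHRNA5 (0.85). RAMP3, a partner protein of peptide hormone receptors, and ANGPT2, a ligand of the endothelial receptor TEK, are known from blood vessels. No gene of the endothelial list was among the 10 highest. None of the other 5 red blood cell genes was among these 10. TAL1 had r = 0.78 and rank 75 of the 12858 genes tested, RHAG 0.52, SPTB 0.49 and RHCE 0.46, SLC4A1 had -0.15, and TSPO2 had -0.78 and rank 12771, near the opposite end. These correlations are a description over 10 hens of which a pair sets much of the range.

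The spread between hens of the same group was moderate for these genes. The within-group SD of log2 CPM was 0.58 for HBBA, 0.57 for HBAD and 0.50 for HBA1, at the 77.5, 77.1 and 70.7 percentile of all genes tested. RHCE (0.58) and TSPO2 (0.56) had a similar spread at far fewer reads. SPTB had the smallest, 0.37, at the 52.7 percentile. The ratio of the highest to the lowest hen was between 2.31 for RHAG and 6.33 for TSPO2 and was 3.20 for HBBA.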

How the data were processed

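White isthmus RNA of 10 hens was sequenced from mRNA-enriched libraries, 1 per hen. The authors used fastp for read filtering, Bowtie2 to discard ribosomal reads, HISAT2 for alignment, StringTie for transcript assembly and RSEM for gene-level estimates. Versions and the genome build are not given in the sources used here. The deposited expected counts were estimated by the authors and not normalized, and 6.73% were fractional, so they were rounded. The deposited FPKM values were corrected by the authors for gene length and depth. The totals were 15245165 to 19014779 reads in the translucent and 11601225 to 17309287 in the opaque group, with medians of 16389842 and 11742126. Apart from Opaque-1, every opaque hen had fewer reads than every translucent hen, so that depth largely went with the group. The part of depth in the group differences was not tested. A floor of 3 counts was used.

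Groups were compared with edgeR 4.0.16 in R 4.3.3 (TMM, filterByExpr, quasi-likelihood test, Benjamini-Hochberg adjustment over all genes tested). SEs were taken from the log2 fold change and its F, and 95% intervals from the SE and the t distribution with the test's degrees of freedom. DESeq2 1.42.0, the tool of the study's methods, and limma 3.58.1 were alternatives. The fits were tested on simulated data. Single genes were also compared by the exact two-sided permutation test over 252 allocations, whose smallest p is 0.0079. Log2 CPM used a prior count of 2. The p-values of the group comparisons set the difference between groups against the spread between hens.

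The 8 genes, the gene lists and the tests were chosen with earlier results of these data known. The genes named are the 8, SLC4A1, in each list those within the unadjusted limits and the 3 most abundant, and the 10 most like the globins, apart from results that are not reported here. Further genes of the lists were named after their values were seen. Symbols missing in the table were taken from RefSeq (GRCg7b) by NCBI gene number, of which 13602 of 13920 matched, and 87 of 113 listed genes were found. The replicate numbers 1 to 5 belong to different animals and were a block only in an alternative. Other alternatives were other size factors, other filters, the 6 hens of the sequencing table, each hen left out and the fit without Translucent-1 and Opaque-5. The fit without Translucent-4 and Translucent-5 was chosen after the data were seen. No sequences are shown.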

Additional observations from a re-analysis of the deposited data

Results flagged for a closer look

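Of 26 groups of 5 hens examined, 2 held an outlying hen, and chance flags about 1 in 20. In each, the gap from that hen to the nearest other, divided by the range of the group, exceeded Dixon's 95% limit of 0.71. RHCE was at 3.56 CPM in Translucent-4, above the other translucent hens at 2.12 to 2.51 CPM. SLC4A1 was at 23.0 CPM in Translucent-3, above the other translucent hens at 10.4 to 13.2 CPM and below the lowest opaque hen at 25.6 CPM.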

How the results depend on the processing

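The 8 genes kept 0 calls in every analysis. Over all genes, DESeq2 called 4. Within the unadjusted limits of p and fold change, 55 genes were placed by edgeR, 218 without the low-count filter, 141 by DESeq2, 19 with at least 10 reads in every hen, 233 in the 6 hens of the sequencing table, 22 by limma on log2(FPKM + 1), 128 on log2(FPKM + 0.1), 99 without Translucent-4 and Translucent-5 (chosen after seeing the data), and 71 to 99 with a hen left out. In the 6 hens, log2 fold changes turned to -0.15 for HBA1, -0.30 for HBAD, -0.36 for HBBA, -0.018 for SPTB and -0.20 for TAL1. Without Translucent-4 and Translucent-5 they turned to -0.069 for HBA1, -0.261 for HBAD, -0.253 for HBBA and -0.119 for TAL1, and r with HBBA was 0.33 for TAL1, -0.851 for TSPO2 and 0.783 for the endothelial mean, none with an adjusted p under 0.05. Leaving out single hens gave -0.224 to 0.054 for RHAG. With at least 10 reads in every hen, RHCE and TSPO2 were not tested. In the 6 hens, r with HBBA was 0.97 for HBA1, 0.85 for HBAD, -0.95 for TSPO2, 0.68 for the endothelial mean, 0.71 for RHCE, 0.65 for SLC4A1, 0.31 for SPTB, -0.047 for RHAG and -0.016 for TAL1, and r of TAL1 with the endothelial mean was -0.48. None of these had an adjusted p under 0.278 by exact permutation, and 6 hens allow few permutations. TSPO2 had r = -0.63 on log2(FPKM + 1). With HBBA, leaving out single hens gave r from 0.67 to 0.94 for TAL1, from -0.94 to -0.71 for TSPO2 and from 0.60 to 0.77 for the endothelial mean, and 0.63 without Translucent-1 and Opaque-5. TAL1 and the endothelial mean had r = 0.66 with library size alone, 0.70 on both FPKM scales, 0.69 without Translucent-1 and Opaque-5 and 0.34 to 0.69 with a hen left out. By exact permutation, the adjusted p was 0.0394 with library size alone, 0.0238 on log2(FPKM + 1) and 0.0257 on log2(FPKM + 0.1). It was 0.0417 without Translucent-1 and Opaque-5, 0.0116 without Translucent-1 alone and 0.048 without Translucent-2. In the main analysis and the remaining alternatives it was above 0.05. The globin share was 0.0299% of the summed FPKM instead of 0.0107% of counts, and the alpha to HBBA ratio 0.98 in counts instead of 1.25, since counts are not corrected for length. The cause of the other changes was not tested. With the replicate number as a block, HBA1, HBAD, HBBA and TSPO2 had log2 fold changes of 0.39, 0.23, 0.28 and -0.82, and the calls did not change. Same-numbered hens deviated with a mean r of -0.13 over 5 pairs. Depth limits TSPO2 most, at 4 to 27 reads.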
